A study of Homo sapiens with 12 samples.

Results

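MT-ND6 is the mitochondrial gene for subunit ND6 of complex I, the first enzyme of the respiratory chain, and the only one of the 13 mt-mRNA genes that lies on the − strand of the reference mitochondrial genome. It was taken by its row in the 6 RNA-seq tables, so it is 1 of the 35 mitochondrial genes counted (13 mt-mRNA genes and 22 mt-tRNA genes). The tables hold RNA of mitochondria isolated from HEK293T cells, a human embryonic kidney line, with 3 PDE12+/+ and 3 PDE12-/- samples, out of 12 samples in the series. PDE12 is a nuclear-encoded mitochondrial exoribonuclease that removes 3′ adenosines. PDE12-/- was made from HEK293T by zinc finger nucleases aimed at exon 1, followed by cloning from single cells and a search for indels in both alleles, so an effect of the genotype cannot be told apart from differences between a clone and the cells it came from. Cells of both genotypes were at passages 10 to 15 in DMEM with serum, and the labels name no treatment for these 6 samples. PDE12 mRNA and the defining markers of the line are nuclear and were not analysed here, so neither the knockout nor the cell type was checked in these data. The comparison addressed whether the steady-state level of this mt-mRNA, or of RNA antisense to it, differed without PDE12.

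Both strands of human mtDNA are transcribed into long RNAs that are cut into single mRNAs, tRNAs and rRNAs. The + strand RNA gives 12 of the mt-mRNAs, while the − strand RNA gives MT-ND6 mRNA, 8 mt-tRNAs and long stretches antisense to the + strand genes, which mitochondria degrade. MT-ND6 mRNA is also known as the mt-mRNA that carries no stable poly(A) tail in human cells, and the 3′ part of MT-ND5 mRNA is known to run on beyond its stop codon, antisense to MT-ND6.

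MT-ND6 (ENSG00000198695.2) occupies chrM:14149-14673 in GRCh38, on the − strand, as a single coding exon of 525 nt with no intron and no annotated UTR in GENCODE release 44. MT-TE, the mt-tRNA gene for glutamate, lies directly upstream on the same strand at chrM:14674-14742, and 0 bases separate the pair. On the other side MT-ND5, a + strand gene for another complex I subunit (chrM:12337-14148), ends directly at the last base of MT-ND6, again with 0 bases between them. MT-CYB, the + strand gene for cytochrome b of complex III, begins beyond MT-TE (chrM:14747-15887). Both ends of the gene are shown, since they set which neighbour a read that crosses them would also touch. The first stretch is the 5′ end on the − strand, with the end of MT-TE in lower case and the first 15 bases of MT-ND6 in capitals. The second is the 3′ end on the same strand, with the last 3 bases of MT-ND6 in capitals, and the last stretch is the same interval read on the + strand, with the last 3 bases of MT-ND5 in capitals. All are reference sequence.
5′ end of MT-ND6, chrM:14659-14688, − strand: gtccgtgcgagaataATGATGTATGCTTTG
3′ end of MT-ND6, chrM:14134-14163, − strand: gctcgggggaatAGGttatgtgattaggag
3′ end of MT-ND5, chrM:14134-14163, + strand: ctcctaatcacaTAAcctattcccccgagc

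The sense sequence of MT-ND6 had a base composition far from that of the other mt-mRNAs. G made up 35.6% and T 37.7% of its bases, against 6.28 to 16.2% and 21.7 to 30.3% in the 12 + strand mt-mRNAs. C made up 7.05% and A 19.6%, against 29.5 to 36.0% and 26.8 to 38.6%. Its GC content of 42.7% was inside the range of the others (39.6 to 47.7%). Of its 175 codons, 2 were the lysine codons AAA or AAG, 1 of each, which is 1.14 per 100 codons against a median of 2.38 in the + strand mt-mRNAs (0 in MT-ND4L to 10.1 in MT-ATP8).

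Counts over the 35 genes ranged from 36338 in PDE12+/+ replicate 1 to 104708 in PDE12+/+ replicate 2, with 67261 to 91730 for PDE12-/-. Being limited to mitochondrial genes other than rRNA, these totals are less than the full libraries. Reverse-strand counts made up 4.51 to 10.5% of them, with PDE12-/- replicate 1 highest. Reverse counts of MT-ND6 were read as sense and forward counts as antisense. At MT-ND6 the reverse counts exceeded the forward ones, whereas all 8 − strand mt-tRNA genes had more forward than reverse counts (16543 against 717 over the samples). The reading of the columns as genome strands was taken from their names, forward and reverse. The order of the counts at these genes does not settle it.

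RNA sense to MT-ND6 did not differ detectably between the genotypes. Counts per gene do not tell MT-ND6 mRNA from uncut − strand RNA that runs through the gene, so the sense level covers both. The sense counts of MT-ND6 were 135, 534 and 329 in PDE12+/+ and 358, 319 and 388 in PDE12-/-, in order of replicate number. After TMM scaling, which corrects for composition, the sense level was 3403, 6560 and 4200 CPM (counts per 1000000 counts) in PDE12+/+ and 3883, 4561 and 3913 CPM in PDE12-/-. On this scale PDE12+/+ replicate 2 was the highest sample and the 3 PDE12-/- samples lay within the range of PDE12+/+. The spread was wider in PDE12+/+ (4721 ± 1642 CPM, SD, n = 3) than in PDE12-/- (4119 ± 383 CPM, SD, n = 3). Both traits depend on the TMM scaling. Without it, PDE12-/- replicate 1 was highest (10138 CPM per kb of gene length, against 9714 in PDE12+/+ replicate 2). The SDs were then close, at 1448 CPM per kb in PDE12+/+ and 1386 in PDE12-/-. The log2 fold change of PDE12-/- over PDE12+/+ was −0.20 (SE 0.35, adjusted p = 0.966, edgeR quasi-likelihood test, Benjamini-Hochberg over 70 features). Its 95% confidence interval, −0.88 to 0.48, covers levels in PDE12-/- from 0.543 to 1.39 times that in PDE12+/+, so the samples do not resolve changes inside that range. The sign rested on PDE12+/+ replicate 2, without which the log2 fold change was 0.11, and it was also positive when the samples were scaled by library totals (0.09) or by the + strand mt-mRNA counts (0.10). The labels do not say that replicates came from separate cultures, so the spread between these samples may be technical. The edgeR SE, interval and p-value use that spread pooled over the 70 features with a common dispersion (280 degrees of freedom). They do not measure the spread of MT-ND6 alone. All levels are relative to the counts of the mitochondrial genes in the same sample. A change shared by all of these genes, in the number of mitochondria or in RNA per mitochondrion, would therefore not show.

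RNA antisense to MT-ND6 was present in every sample and likewise did not differ detectably. Its counts were 80, 209 and 223 in PDE12+/+ and 170, 228 and 266 in PDE12-/-. On the TMM scale these were 2017, 2568 and 2847 CPM in PDE12+/+ (2477 ± 422, SD, n = 3) and 1844, 3260 and 2683 CPM in PDE12-/- (2596 ± 712, SD, n = 3). The lowest and the highest sample were both PDE12-/-, so the groups overlapped throughout. The log2 fold change was 0.06 (SE 0.35, adjusted p = 1, same edgeR test) with an interval of −0.64 to 0.76, and it turned to −0.06 without PDE12+/+ replicate 1 and to −0.14 without PDE12-/- replicate 2.

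Across the 70 features (sense and antisense of 35 genes) 0 passed the threshold in edgeR, a percentage called of 0%, and 5 had an unadjusted p under 0.05 (7.14%). DESeq2 called 0 as well. The groups did not overlap in TMM-scaled CPM for 10 of the 70 features (14.3%), and neither direction of MT-ND6 was among them. With the replicate number as a block, 4 features were called (5.71%), namely MT-ND2, MT-CO1 and MT-CO2 sense and the forward counts of MT-TN. All 4 had smaller SEs with the block while their log2 fold changes moved little. For MT-CO1 sense the log2 fold change was −0.56 (SE 0.11) with the block and −0.52 (SE 0.34) without it. The data do not single out this pairing of samples. The MT-TN counts are antisense only under the reading of the columns used here. MT-ND6 was not called in either direction.

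**Figure D1:**
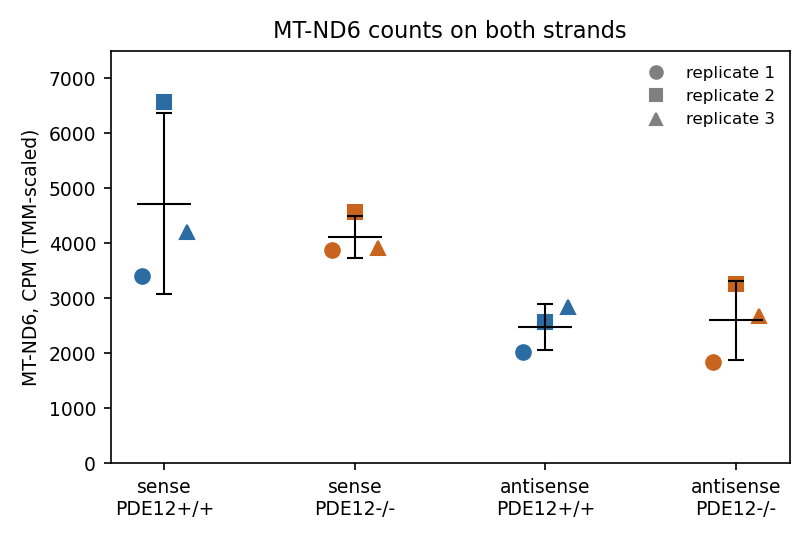
TMM-scaled CPM of MT-ND6 (vertical axis) by strand and genotype, 1 point per sample with the symbol giving the replicate number, the long horizontal line the mean and the bars ± 1 SD (n = 3). Sense levels lie above antisense levels in each genotype. On this TMM scale PDE12+/+ replicate 2 at 6560 CPM stands above the other sense values, which it does not without TMM scaling.

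The balance of sense and antisense does not depend on scaling between samples. Sense counts were 1.40 to 2.56 times antisense counts in the 6 samples. This order depends on the reading of the columns, and with the columns exchanged at MT-ND6 it is antisense that exceeds sense, by the same factors. The sense share of both strands was 62.8%, 71.9% and 59.6% in PDE12+/+ and 67.8%, 58.3% and 59.3% in PDE12-/-. The 95% Wilson intervals, which cover counting error only, were 68.5 to 75.0% for PDE12+/+ replicate 2 and 55.5 to 63.6% for PDE12+/+ replicate 3. In PDE12-/- they were 63.7 to 71.6% for replicate 1 and 54.1 to 62.4% for replicate 2. Within each genotype the intervals of these samples were thus apart, and the groups overlapped. The means were 64.8 ± 6.37% and 61.8 ± 5.21% (SD, n = 3), a difference of −2.94 percentage points (exact permutation test, two-sided, p = 0.5, where 3 against 3 samples cannot go below 0.1). Without PDE12+/+ replicate 2 the difference was 0.620 percentage points.

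MT-ND6 sense made up 5.18%, 9.01% and 7.66% of all reverse-strand counts in PDE12+/+ and 5.05%, 8.75% and 6.87% in PDE12-/-. Both genotypes had their lowest share in replicate 1 and their highest in replicate 2, and every sample was above the 4.07% of the summed gene length that MT-ND6 takes up. The group means were 7.28 ± 1.94% and 6.89 ± 1.85% (SD, n = 3), with a difference of −0.393 percentage points (exact permutation test, two-sided, p = 0.7). The differences between samples of the same number were −0.128, −0.259 and −0.791 percentage points, lower in PDE12-/- in 3 of 3 pairs (exact sign-flip permutation test, p = 0.25, the smallest that 3 pairs allow). The unpaired difference was 0.471 without PDE12+/+ replicate 2 and 0.527 without PDE12-/- replicate 1.

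**Figure D2:**
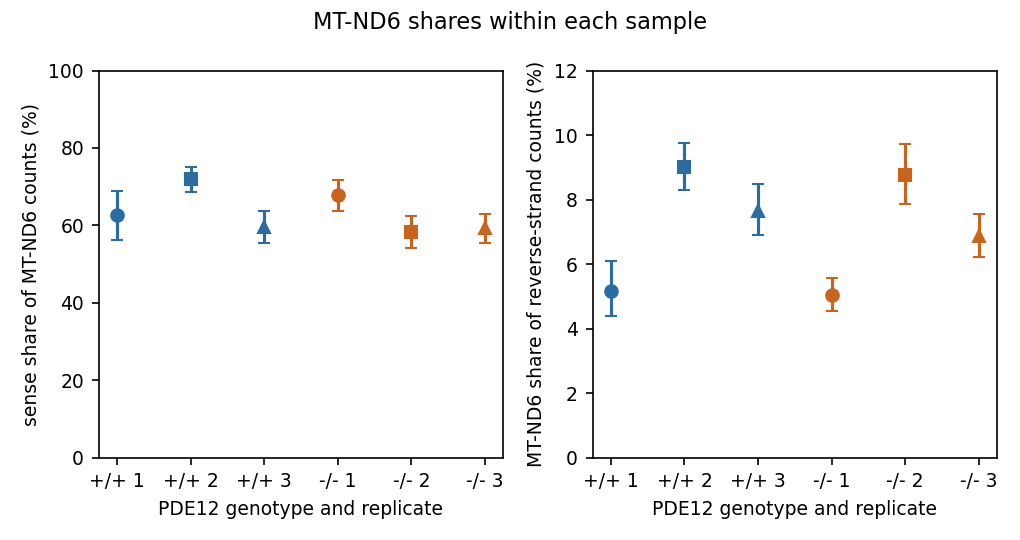
Share of sense counts among all MT-ND6 counts (left axis, %) and share of MT-ND6 sense among all reverse-strand counts (right axis, %) in each of the 6 samples, with 95% Wilson intervals as bars. The sense share runs from 58.3 to 71.9% and the reverse-strand share from 5.05 to 9.01%, and in both plots the genotypes overlap.

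Per length, the sense counts of MT-ND6, which include any uncut RNA, were among the lowest of the mt-mRNAs. They had the lowest mean over the 6 samples and in PDE12-/-, while in PDE12+/+ the mean of MT-ND2 (6824 CPM per kb) was lower than that of MT-ND6 (8050 CPM per kb). Without TMM scaling, which does not bear on an order within a sample, its sense level was 7076, 9714 and 7358 CPM per kb in PDE12+/+ (8050 ± 1448, SD, n = 3) and 10138, 7512 and 8057 in PDE12-/- (8569 ± 1386, SD, n = 3). It ranked last of the 13 mt-mRNAs in 4 of 6 samples, that is in PDE12+/+ replicate 3 and in every PDE12-/- sample. In PDE12+/+ replicate 1 it stood above MT-ND2, and in PDE12+/+ replicate 2 above MT-ND2 and MT-ND5. MT-ND2 and MT-ND5, each encoding a membrane subunit of complex I, were next in the order of means over the 6 samples, with levels of 5683 to 16209 and 7487 to 13134 CPM per kb. Both ranges overlapped that of MT-ND6 (7076 to 10138), as did that of MT-ND1 (9586 to 21306). Within each sample MT-ND6 was below MT-ND1, at 45.6 to 86.9% of its level, but it was not below MT-ND2 and MT-ND5 in every sample. The places of MT-ND6, MT-ND2 and MT-ND5 in the order are thus not separated by these samples. With the strand columns exchanged, MT-ND6 would be at 3802 to 5523 CPM per kb and last of the 13 in 6 of 6 samples. MT-ATP8, from 12763 CPM per kb, and all mt-mRNAs above it lay outside the range of MT-ND6. MT-CO3, which encodes a core subunit of complex IV, was highest, at 34.3 to 42.7 times the per-length level of MT-ND6. In all, MT-ND6 gave 0.424 to 0.615% of the mt-mRNA sense counts from 4.61% of the mt-mRNA length.

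**Figure D3:**
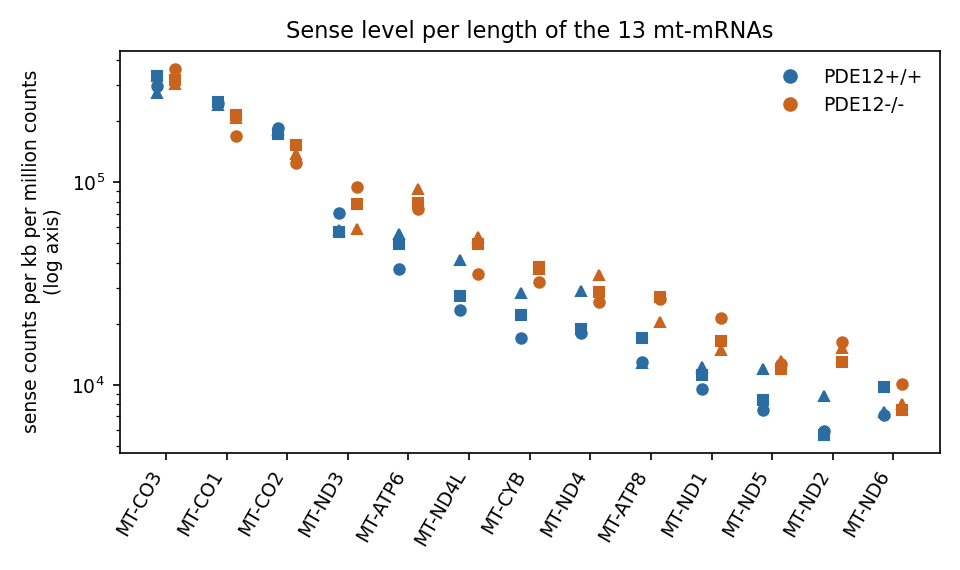
Sense CPM per kb without TMM scaling (log axis) of the 13 mt-mRNAs, ordered by their mean over the 6 samples, with PDE12+/+ in blue and PDE12-/- in orange and the symbol giving the replicate number as in the plot of MT-ND6 counts. MT-ND6 is at the low end with 7076 to 10138, in the same range as MT-ND2 and MT-ND5.

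Against the median of the 12 + strand mt-mRNAs in the same sample, the per-length level of MT-ND6 sense was 34.1%, 39.3% and 20.9% in PDE12+/+ and 30.0%, 17.1% and 17.7% in PDE12-/-. The lowest PDE12+/+ sample lay below the highest PDE12-/- sample, so the groups overlapped. As log2 ratios the means were −1.72 ± 0.48 and −2.26 ± 0.45 (SD, n = 3), a difference of −0.54 (exact permutation test, two-sided, p = 0.2). The difference was 0.09 when the + strand mt-mRNAs were summed instead, a sum that MT-CO1 and MT-CO3 lead. This ratio moves with the + strand mt-mRNAs as well as with MT-ND6, and 9 of the 12 were higher and 3 lower in PDE12-/- on the TMM scale, with 0 called.

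The other mt-mRNAs for complex I, all from the + strand, were MT-ND1, MT-ND2, MT-ND3, MT-ND4L, MT-ND4 and MT-ND5. Of these 6, 0 were called in either direction by edgeR, and their log2 fold changes had a median of 0.30, against −0.02 over all 70 features and −0.20 for MT-ND6. The values ran from 0.09 for MT-ND3 to 0.87 for MT-ND2 (SE 0.34, adjusted p = 0.285 in edgeR, and 0.0140 with the replicate block). MT-ND6 sense per length was 119%, 171% and 83.2% of MT-ND2 in PDE12+/+ and 62.5%, 57.8% and 53.0% in PDE12-/-. As a share of MT-ND1 it was 73.8%, 86.9% and 59.8% in PDE12+/+ and 47.6%, 45.6% and 54.1% in PDE12-/-. Of the 6 ratios to complex I mt-mRNAs these were the 2 whose groups did not overlap, where 3 of the ratios to all 12 + strand mt-mRNAs did not (25%), the remaining one being that to MT-ATP8. As a share of MT-ND5 it was 94.5%, 116% and 61.5% in PDE12+/+ and 80.0%, 62.7% and 61.3% in PDE12-/-. As a share of MT-ND3 it was far lower, with means of 13.3 ± 3.62% and 11.4 ± 2.13% (SD, n = 3). Against the median of the 6, the log2 ratio of MT-ND6 differed between the genotypes by −0.45 (exact permutation test, two-sided, p = 0.2).

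On the reverse strand, MT-ND6 was compared with what lies opposite the + strand genes, which − strand transcription passes in the order MT-CYB, MT-ND6, MT-ND5 and on to MT-ND1. The per-length level of MT-ND6 sense was 1.47 to 3.77 times the median of the reverse strand at the 12 + strand mt-mRNA genes. The log2 ratios were 0.80, 1.91 and 1.71 in PDE12+/+ and 0.56, 1.70 and 1.43 in PDE12-/-, again with replicate 1 lowest and replicate 2 highest in both. Their means were 1.47 ± 0.59 and 1.23 ± 0.60 (SD, n = 3), differing by −0.24 (exact permutation test, two-sided, p = 0.5), or by 0.09 without PDE12-/- replicate 1. That sample had the highest share of reverse-strand counts (10.5%).

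MT-ND6 did not have the highest reverse-strand level. RNA opposite MT-CYB was higher per length in 6 of 6 samples, at 11217 ± 1497 CPM per kb in PDE12+/+ and 11995 ± 3931 in PDE12-/- (SD, n = 3). MT-ND6 was at 0.594, 0.794 and 0.775 times that level in PDE12+/+ and at 0.658, 0.976 and 0.625 times in PDE12-/-. RNA opposite MT-ND5 was near that of MT-ND6, higher in 4 of 6 samples, at 8072 ± 677 in PDE12+/+ and 9811 ± 3761 in PDE12-/- (SD, n = 3). Among the reverse-strand levels of the 13 genes MT-ND6 thus ranked between 2 and 4. Beyond MT-ND5 the reverse-strand level was lower on average, with means over the samples of 44.7% of that of MT-ND6 opposite MT-ND4 and of 10.8% opposite MT-ATP8, although MT-CO3 reached 69.9% (36.6 to 119%).

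**Figure D4:**
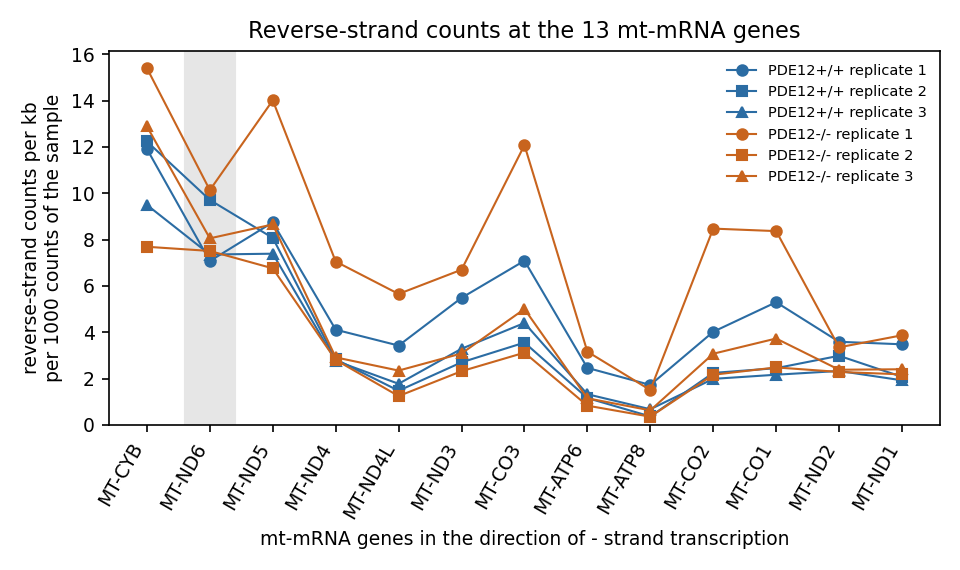
Reverse-strand counts per kb per 1000 counts of the sample at the 13 mt-mRNA genes, placed in the direction of − strand transcription, with 1 line per sample and MT-ND6 shaded. On average the levels are highest at MT-CYB, MT-ND6 and MT-ND5, although MT-CO3 lies above MT-ND6 in 2 of 6 samples, replicate 1 of each genotype, and PDE12-/- replicate 1 lies above the other samples at most genes.

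Reverse-strand counts at the + strand genes were also set beside their forward counts. How much of the MT-ND6 signal is forward RNA counted on the wrong strand was not tested. The lowest reverse rate at a + strand mt-mRNA gene was 0.907 to 3.34 counts per 100 forward counts, at MT-CO1, MT-CO3 or MT-ATP6. At that rate the forward counts of MT-ND6 would give 1.73 to 5.68 reverse counts, where 135 to 534 were counted. Whether the same rate holds at MT-ND6 is not known. MT-ND5 had the highest rate of the + strand genes in every sample (56.5 to 117 per 100), and MT-ND6 had 140 to 256 reverse counts per 100 forward.

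The forward RNA that is antisense to MT-ND6 was set against its + strand neighbours. Its per-length level was 56.0%, 45.4% and 41.7% of MT-ND5 sense in PDE12+/+ and 38.0%, 44.8% and 42.1% in PDE12-/-, below MT-ND5 in 6 of 6 samples. The log2 ratios had means of −1.08 ± 0.22 and −1.27 ± 0.12 (SD, n = 3), a difference of −0.19 (exact permutation test, two-sided, p = 0.3). Against MT-CYB sense the level was 24.6%, 17.3% and 17.5% in PDE12+/+ and 14.9%, 14.2% and 14.9% in PDE12-/-, groups that did not overlap (log2 difference −0.41, exact permutation test, two-sided, p = 0.1, the smallest possible). MT-CYB sense itself had a log2 fold change of 0.44 (SE 0.34, adjusted p = 0.784 in edgeR) and MT-ND5 sense of 0.20 (SE 0.34, adjusted p = 0.966 in edgeR). Over the 6 samples, the log2 ratio of MT-ND6 forward to MT-ND5 forward had an SD of 0.19, against 0.44 for MT-ND6 forward to MT-ND5 reverse, 0.38 for MT-ND6 reverse to MT-ND5 forward and 0.28 for reverse to reverse. Counts on the same genome strand thus varied together more closely than counts on opposite strands at this pair of genes, as a description of 6 samples. At MT-CYB the SDs were 0.29 and 0.27 on the same strand and 0.46 and 0.48 on opposite strands.

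MT-TE, upstream of MT-ND6 on the − strand, gave few counts, with 5, 16 and 3 reverse counts, read as sense, in PDE12+/+ and 13, 9 and 9 in PDE12-/-. Per length this was 6.94 to 28.2% of MT-ND6 sense, while its antisense level was 76.5 to 181% of MT-ND6 antisense. Its log2 fold changes were −0.01 for sense and 0.05 for antisense (adjusted p = 1 for both in edgeR). Among the 8 − strand mt-tRNA genes, 4 were higher and 4 lower in PDE12-/- in the reverse column (median log2 fold change 0.01), 3 were higher and 5 lower in the forward column (median −0.61), and 0 were called in either. RNA opposite MT-ND5 and MT-CYB had log2 fold changes of −0.02 and −0.21, beside −0.20 for MT-ND6 sense (adjusted p = 1, 0.966 and 0.966 in edgeR), and 5 of the 12 antisense features of the + strand mt-mRNA genes were higher and 7 lower in PDE12-/-, with 0 called and a median of −0.04.

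Among 36 other features that had no sample under 10 counts, the one most like MT-ND6 sense across the 6 samples was MT-CO3 sense (Pearson r = 0.92 of log2 TMM-scaled CPM). It was followed by the reverse counts of MT-TP, read as sense, the mt-tRNA for proline on the − strand (r = 0.82). MT-TF sense, the mt-tRNA for phenylalanine on the + strand, came next (r = 0.76). MT-CO3 sense was 214568, 335954 and 234054 CPM in PDE12+/+ and 206684, 290628 and 221967 CPM in PDE12-/-. On this TMM scale it was highest in replicate 2 of each genotype, as MT-ND6 was. Without TMM scaling, replicate 1 was the highest PDE12-/- sample for both genes. The 6 points share library and scaling factor between features, and the order was read over 6 samples only.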

How the data were processed

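Total RNA of isolated mitochondria was depleted of rRNA and sequenced as stranded libraries on a MiSeq in 3 PDE12+/+ and 3 PDE12-/- samples, grouped by their labels. The authors trimmed reads with Trim Galore, mapped pairs to GRCh38 with Bowtie2, removed 12S and 16S reads, parted the strands with SAMtools and deposited raw counts per gene and strand made with Rsubread; versions are not given in the sources used here. The 3′-end sequencing tables hold no MT-ND6 and were not used.

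Forward and reverse counts were read as genome strands, which gave 70 features. The fit used edgeR 4.0.16 under R 4.3.3 (TMM, common dispersion 0.0793, quasi-likelihood test, genotype alone). It was tested on counts simulated with that same common dispersion and with changes larger than that of MT-ND6. That test does not show how the fit does where features differ in spread or change as little as MT-ND6. Features were called at an adjusted p (Benjamini-Hochberg) under 0.05. Ratios within samples, 5 in number, were compared with exact permutation tests in SciPy 1.17.1, and after adjustment over the 5 the lowest p was 0.625. Per-length levels used GENCODE gene lengths. Wilson intervals are at 95% and cover counting error only, as read pairs carry no molecular identifiers. Totals of 36338 to 104708 counts, with 80 to 534 per strand at MT-ND6, limit the precision. MT-ATP8 and MT-ATP6, and MT-ND4L and MT-ND4, overlap, so the authors' counting could split their reads.

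Deviations of same-numbered samples correlated at r = 0.620, 0.257 and 0.358 over 37 features with at least 10 counts, so the numbers, taken from the labels, were used as pairs in an alternative fit. PDE12+/+ replicate 3 and PDE12-/- replicate 2 correlated more highly (r = 0.655), so the data do not single out this pairing. Other alternatives were DESeq2 1.42.0, other scalings, filters, denominators and strand readings, and leaving out each sample. Named genes are MT-ND6, its neighbours, the complex I mt-mRNAs, those next to it in the per-length order and the 3 features most correlated with it, with others where a count points to them. The gene and all lists were chosen with earlier results of these data known.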

Additional observations from a re-analysis of the deposited data

How the results depend on the processing

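For the 7 effects measured at MT-ND6, 57 of 70 alternative values kept their sign and 13 turned. Not all of these are separate checks of the sign. For each within-sample ratio, pairing by replicate number gives the main difference again, which could not turn and counts among the 57. Exchanging the strand columns only swaps the main sense and antisense log2 fold changes, and both count among the 13. The sense and antisense log2 fold changes passed the threshold in no alternative fit (lowest adjusted p 0.809 for sense and 0.800 for antisense in edgeR). The exact permutation tests of the within-sample ratios cannot give p below 0.1, and the paired sign-flip tests none below 0.25. These ratios could therefore not pass 0.05 whatever the data, so no conclusion is drawn from their p-values. MT-ND6 sense became positive with library totals (log2 fold change 0.0872), with + strand mt-mRNA counts as library size (0.0958), with the strand columns exchanged at − strand genes (0.0604) and without PDE12+/+ replicate 2, and spanned −0.39 to 0.11 when each sample was left out. Both scalings moved the median of all features by 0.22, and relative to that median the sense value was −0.11 under each, against −0.19 with TMM. MT-ND6 antisense became −0.20 with the columns exchanged, and spanned −0.14 to 0.40 over left-out samples, negative without PDE12+/+ replicate 1 or PDE12-/- replicate 2. With each sample left out, the sense share differed by −5.93 to 0.620 percentage points, the reverse-strand share by −1.45 to 0.527, the log2 ratio to + strand mt-mRNAs by −0.81 to −0.36, the one to the reverse strand by −0.58 to 0.0916 and that of antisense to MT-ND5 by −0.28 to −0.07. The reverse-strand share differed by 1.05 points with − strand genes alone in the denominator, and the ratio to + strand mt-mRNAs by 0.0921 as a sum. Calls over 70 features were 0 with any sample left out, 2 with library totals (MT-ND2 and MT-ATP6) and 3 with + strand counts (MT-ND2, MT-CO1 and MT-ATP6), none of them MT-ND6. The cause of these shifts was not tested.

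The replicate block gave log2 fold changes of −0.15 (adjusted p = 0.916, edgeR) for sense and 0.05 (adjusted p = 1, edgeR) for antisense, with 4 features called, and changed no call at MT-ND6. Paired sign-flip permutation tests of the 5 within-sample measures gave exact p of 0.25 to 0.75, where 0.25 is the smallest possible.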
